A study of Mus musculus with 32 samples.

Results

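This section describes donor CD4 T cells taken from mice that received an allogeneic graft together with regulatory T cells (Treg), compared with donor CD4 T cells from syngeneic recipients, in which no response to foreign tissue antigens is set off. The comparison was defined by the sample labels: 4 Treg-treated and 3 syngeneic CD4 libraries, 7 of 31 RNA libraries in the series, over all 16741 genes of the deposited table. In the series, T cells of C57Bl6 donors were transplanted into major histocompatibility-mismatched Balb/c mice, a model of acute graft-versus-host disease (GVHD), and sorted CD4, CD8 and Treg cells were profiled by bulk RNA and T-cell receptor (TCR) sequencing. The Treg-treated recipients carried GVHD and were given Treg on day 0. The syngeneic controls were untreated, and their strain is not given in the labels. A further group, 4 libraries from allogeneic GVHD recipients without Treg, is used here only to place the levels. All cells were primary T cells from spleen and lymph nodes of the recipients, at day 6 in the sample titles, although the design text gives day 8. No transgene or deletion is named for any group. Each library's label begins with JL019 or JL027, called the prefix below, and the labels do not say that libraries of a group came from separate animals, so p-values measure only the spread between these libraries.

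In an allogeneic host, donor CD4 T cells recognise foreign major histocompatibility molecules, divide, lose the homing receptors of naive cells and acquire cytokine, cytotoxic and tissue-homing genes. In a syngeneic host transferred T cells can still expand but meet no foreign tissue antigen, which makes them the usual baseline for the response to alloantigen. Treg are known to limit GVHD by restraining donor T cells, and a comparison of Treg-treated with syngeneic CD4 cells asks which part of the response to alloantigen was still measured in the presence of Treg. The groups differ in alloantigen, GVHD and Treg transfer at the same time, so these cannot be told apart by this comparison.

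The lineage genes were checked first. Cd4 was at 9108, 8722, 17587 and 9369.5 in Treg-treated and at 16526, 1659 and 14576 in syngeneic libraries, overlapping between the groups. Throughout, values are counts scaled between libraries by the authors, Treg-treated libraries are listed in the order JL019-1, JL019-2, JL027-1 and JL027-2, and syngeneic libraries in the order JL019-1, JL019-2 and JL027. Syngeneic JL019-2 stood apart from both other syngeneic libraries: its Cd8a, a chain of the CD8 coreceptor, was 1956 against 58.2 to 114 in the others, and its summed T cell markers were 53583 against 146283 to 169562. All 14 myeloid, all 10 neutrophil and all 9 erythroid marker genes in the table were higher in it than in any of the other 6 libraries. Its summed neutrophil markers reached 4580350, against 108141 to 120005 in the other syngeneic, 30955 to 111155 in Treg-treated and 7363 to 15049 in allogeneic libraries, and none of these 10 genes was at 0 in any of them. Among the other 6 libraries, summed markers of other cell types also lay apart between the groups. Treg-treated libraries were higher in summed B cell markers (4934 to 11257 against 3388 to 4039) and plasma cell markers (5624 to 7628 against 3484 to 4391). They were lower in summed myeloid markers (9475 to 22121 against 23792 to 30659.6), CD8 markers (426 to 863 against 944 to 1150.5) and stromal and endothelial markers (1369.6 to 3209 against 3597 to 3955). Summed erythroid markers were 50304 to 62646 in Treg-treated JL027 libraries against 20728 in syngeneic JL027, and 5531 to 6109 in Treg-treated JL019 libraries against 4921 in syngeneic JL019-1. Without syngeneic JL019-2, where limma called 27.6% of all genes, the single markers called were 1 higher and 5 lower of 14 myeloid, 0 higher and 3 lower of 10 neutrophil, 1 higher and 0 lower of 12 B cell, 1 higher and 0 lower of 5 plasma cell, 0 higher and 1 lower of 9 erythroid, 0 higher and 1 lower of 2 CD8 and 0 higher and 2 lower of 7 stromal and endothelial genes. With all libraries 0 higher and 9 lower of 14 myeloid and 0 higher and 9 lower of 10 neutrophil genes were called. The sum and the single genes went opposite ways for erythroid markers, whose median log2 difference without syngeneic JL019-2 was -0.53. Cd8a had a log2 difference of -2.74 (limma adjusted p 0.0047) and -1.21 without that library (adjusted p 0.0296), or -3.74 without syngeneic JL019-1. The part of these cells in the results below was not tested. Ncr1, the defining receptor of natural killer cells, was 468 in syngeneic JL019-2 and 21.3 to 46.3 in Treg-treated libraries. With all libraries it was not called, and its log2 difference turned from lower to higher in Treg-treated cells without syngeneic JL019-2. List counts below are also given without syngeneic JL019-2, and a gene's call against syngeneic CD4 cells held without it unless the text says otherwise. In bulk libraries a lower share of a cell type and less RNA of a gene per cell cannot be told apart.

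**Figure D1:**
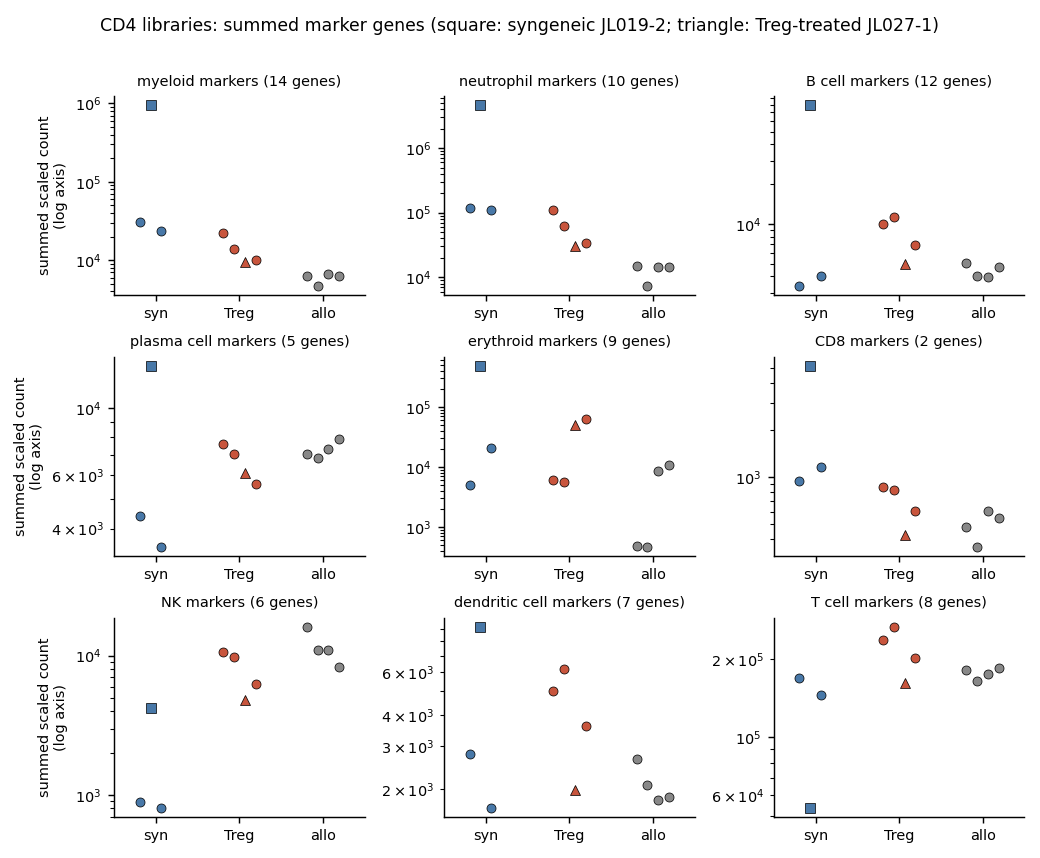
Summed scaled counts of marker genes for 9 cell types (log axis) in each CD4 library, by group. Syngeneic JL019-2 (square) lies above every other library for 7 of the lists and below them for the T cell markers.

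Among Treg-treated libraries, JL027-1 stood closest to the allogeneic group. Across genes, none of which is a replicate, the Pearson r of its log2 values averaged 0.966 with allogeneic and 0.946 with the other Treg-treated libraries, whereas each of the other 3 correlated more with Treg-treated libraries. With syngeneic libraries its r was also the highest of its group, at 0.92 against 0.899 to 0.908 in the other 3. Foxp3, the defining transcription factor of Treg, was at 172, 127, 147 and 178 in Treg-treated and at 490.2, 44.9 and 905 in syngeneic libraries, and its log2 difference of -0.81 (SE 0.65, limma adjusted p 0.416) did not pass the test. It was -2.10 without syngeneic JL019-2 (adjusted p 0.00501), lower in Treg-treated cells, and -0.015 within JL019 and -2.48 within JL027. Low values in the 7 libraries fell on steps that put the depth near 25.6 to 31.1 M reads per library, an estimate that rests on 17% to 27.1% of the values under 8.

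Treg-treated CD4 cells differed widely from syngeneic CD4 cells. Genes for cytokines, serine protease inhibitors and activation receptors were mostly higher, as were 9 of 18 cytotoxic granule genes, and genes of naive cells and lymph node homing were mostly lower. limma called 2789 of 16741 genes (16.7%) at an adjusted p under 0.05. Treg-treated cells had 1378 of these (8.23%) at a higher and 1411 (8.43%) at a lower level, and 2035 differed by more than 2-fold on the log2(value + 1) scale. Without syngeneic JL019-2 the same test called 4617 genes (27.6%), 2146 higher (12.8%) and 2471 lower (14.8%). Of the 2789 genes, 2274 were called both ways, all with the same sign. The 4 and 3 libraries did not overlap for 3016 genes (18% of the table, 9.21% higher and 8.8% lower), and 1970 of these were called. The median log2 difference over all genes was -0.045, and -0.014 without syngeneic JL019-2.

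Several conditions bear on these counts. The fit took its estimate of the spread from all 31 libraries, and with only the 2 groups compared in the model 598 genes were called. Of 118 called genes named here, a count without some that are named only as list members, 38 lost their call in that model. Within JL019, with 2 libraries against 2, limma called 0 genes (2224 at an unadjusted p under 0.05), and within JL027, with 2 against 1, it called 256. Centring each library on its median moved the median difference to 0.27 and the share of higher genes among those called from 49.4% to 75% (2784 higher, 929 lower). The difference also ran with gene length: the median log2 difference was 0.27 in the 3964 genes with the shortest genomic span and -0.26 in the 3964 with the longest. Each library's slope on log2 span, against the mean of all libraries, was -0.099, -0.12, 0.016 and -0.069 in Treg-treated libraries. It was 0.042, -0.047 and 0.037 in syngeneic and 0.019 to 0.045 in allogeneic libraries. Treg-treated JL027-1 thus lay apart from its group. Differences from allogeneic cells are given below with this trend in place. With a trend on length removed from each library, 2697 of 15855 genes with a known span were called.

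The genes with the lowest p-values gave a compact picture. The 10 leading higher genes were Cxcr6, Serpina3f, Art2a, Calca, Serpina3g, Serpinb6b, Klrc1, Sv2c, Gzmb and Ccr9. They include receptors of tissue-homing cells, protease inhibitors and a granzyme. The leading lower genes described here were Igfbp4, Ampd1, Cd72, Dntt, Slc14a1, Atp1b1, Jaml, Rnf122 and Sgk3, among which Igfbp4 is a textbook gene of naive T cells. All 19 were called with the length trend removed, and their direction within JL019 and JL027 is fixed by the choice of genes whose groups do not overlap. Against allogeneic cells, where limma called 22.2% of all genes (10.7% higher and 11.5% lower), 2 of the 19 were called: Art2a was higher (0.92, limma adjusted p 0.028) and Jaml higher (0.83, limma adjusted p 0.016).

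Cxcr6 (ENSMUSG00000048521, GRCm38 chromosome 9, 123806477 to 123811754), a chemokine receptor of tissue effector T cells, was at 36858, 34908, 28763 and 25459 in Treg-treated and at 2496, 1294 and 2040.2 in syngeneic libraries. Every Treg-treated library lay far above every syngeneic one. The log2 difference was 4.05 (SE 0.22, limma adjusted p 1.34e-12), 3.79 without syngeneic JL019-2 (adjusted p 7.43e-12), 4.32 within JL019 and 3.73 within JL027. The allogeneic libraries were at 35507, 32281, 43960.1 and 33944, and the log2 difference between Treg-treated and allogeneic cells was -0.22 (SE 0.20, limma adjusted p 0.469).

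Ccr9 (ENSMUSG00000029530), the receptor that directs T cells to the small intestine, lies near it on chromosome 9 (123767211 to 123783457). It was at 3271, 3243, 7569 and 3408 in Treg-treated and at 100.1, 388 and 147 in syngeneic libraries, so that the Treg-treated values were alike but for JL027-1, which was higher. The log2 difference was 4.50 (SE 0.33, limma adjusted p 2.97e-10). Gzmb, the main killing protease of cytotoxic granules, was at 34582, 41029, 34022 and 31893 in Treg-treated and at 1996, 2373 and 4272 in syngeneic libraries, a difference of 3.69 (SE 0.27, limma adjusted p 1.93e-10). The groups did not overlap for either gene.

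Serpina3f and Serpina3g, genes of a cluster of serine protease inhibitors on chromosome 12, were at 3705 to 5574 and 13144 to 18082 in Treg-treated libraries. In syngeneic libraries they were at 198 to 255 and 1606 to 2028. The log2 differences were 4.32 and 3.11 (limma adjusted p 1.34e-12 and 1.46e-11), and the groups did not overlap. The genes are close copies, between which the authors' counting may have divided reads. Klrc1, which encodes the inhibitory lectin-like receptor NKG2A, was at 7921, 7040.0, 4507 and 4724 in Treg-treated and at 365, 521 and 220.0 in syngeneic libraries, so that the difference was 4.08 (SE 0.27, limma adjusted p 2.32e-11) on the log2 scale. Art2a, a gene of the ADP-ribosyltransferase family with a close copy, was 1143 to 2279.8 in Treg-treated and 21.1 to 45.1 in syngeneic libraries, a difference of 5.61 (SE 0.32, limma adjusted p 1.72e-12). Sv2c, a synaptic vesicle glycoprotein, was 457 to 1179.9 and 28 to 47, a difference of 4.50 (SE 0.32, limma adjusted p 1.68e-10). Calca, the gene of calcitonin and the calcitonin gene-related peptide, was at 556, 619.8, 198 and 431 in Treg-treated and at 1.77, 1.38 and 0 in syngeneic libraries. The syngeneic values are those of at most about 2 reads, so its fitted log2 difference of 7.79 (limma adjusted p 4.23e-12) depends on the pseudocount.

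Igfbp4, a binding protein for insulin-like growth factors that naive T cells express, was at 273, 534, 211 and 295 in Treg-treated and at 50386, 10627 and 43026 in syngeneic libraries, a log2 difference of -6.52 (SE 0.38, adjusted p 3.43e-12 in limma) and of -7.23 without syngeneic JL019-2 (adjusted p 2.16e-14). The groups were far apart, and syngeneic JL019-2 was the lowest of its group. Within the prefixes the difference was -5.92 within JL019 and -7.43 within JL027. Dntt, the terminal transferase that adds nucleotides at TCR joints in immature lymphocytes, was 304 to 1120.0 in syngeneic and 3.05 to 4.81 in Treg-treated libraries, a difference of -6.88 (SE 0.52, limma adjusted p 3.24e-10). The other leading lower genes had log2 differences between -5.42 (Ampd1, an AMP deaminase) and -2.45 (Rnf122, a RING finger protein), with no overlap of the groups.

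**Figure D2:**
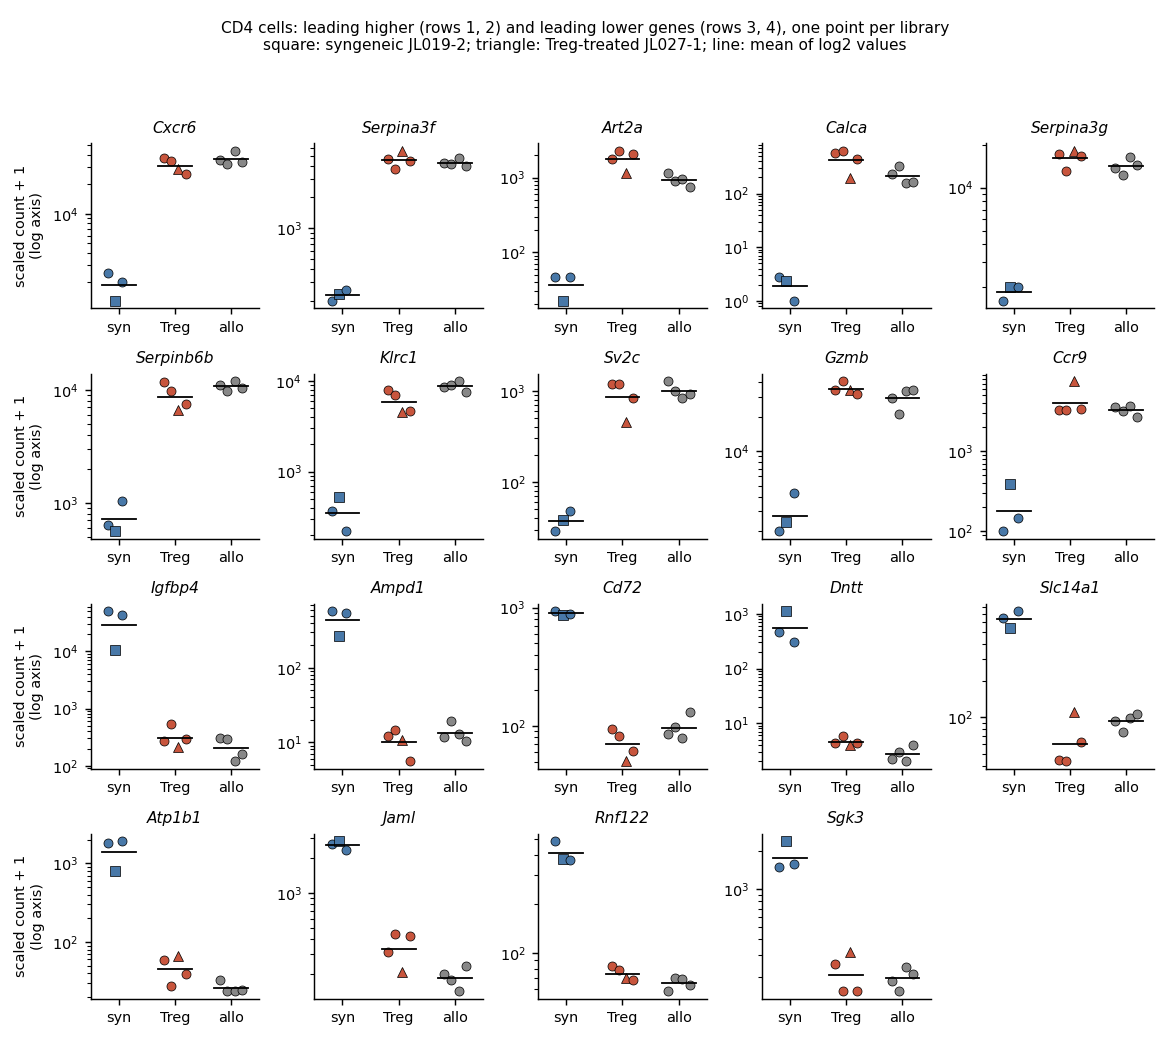
Scaled counts plus 1 (log axis) of 10 leading higher and 9 leading lower genes in each library of syngeneic (syn), Treg-treated (Treg) and allogeneic (allo) CD4 cells, with the mean of the log2 values as a line. Treg-treated libraries lie apart from the syngeneic ones in all 19 panels, and overlap the allogeneic ones in 18.

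Genes were then read by list. The lists were written from general knowledge with earlier results of these data known, so a share of called genes describes the list and supports nothing on its own. The background for every list is the 16.7% of all genes called in either direction, the 8.23% called higher, the 8.43% called lower and the median of -0.045. Of 29 lists, 23 had a larger share called than 16.7%, 1 was at it and 5 were below it.

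Cytokine genes were mostly higher in Treg-treated cells. Of the 19 genes of this list in the table, 12 higher and 2 lower were called, and the median log2 difference was 2.12, while without syngeneic JL019-2 10 higher and 2 lower were called, with a median of 1.91. In allogeneic against syngeneic cells, a comparison that shares the syngeneic libraries and in which 14.6% of all genes were called (6.69% higher and 7.91% lower), 8 higher and 4 lower were called. Against allogeneic cells 10 higher and 0 lower were called in Treg-treated cells.

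Il4, the signature cytokine of T helper 2 cells, was at 1622, 1787, 826 and 1907 in Treg-treated, 11.8, 56.7 and 30.8 in syngeneic and 201, 275, 369 and 256 in allogeneic libraries. The 3 groups did not overlap, with Treg-treated libraries highest. The log2 difference from syngeneic cells was 5.67 (SE 0.46, limma adjusted p 9.53e-10), 6.18 without syngeneic JL019-2 (adjusted p 7.2e-10), and from allogeneic cells 2.44 (SE 0.42, limma adjusted p 0.00241). Within the prefixes it was 5.97 within JL019 and 5.30 within JL027. Csf2, the gene of the myeloid growth factor GM-CSF, was at 5329.8, 5832, 1356 and 3646 in Treg-treated and at 441, 98.3 and 181 in syngeneic libraries, a difference of 4.14 (SE 0.57, limma adjusted p 7.09e-06). Its lowest Treg-treated library was JL027-1. Ifng, the signature cytokine of T helper 1 cells, was at 7395, 11048, 5285 and 6888 in Treg-treated and at 970.0, 713 and 837 in syngeneic libraries, a difference of 3.15 (SE 0.32, limma adjusted p 6.22e-08), and 0.74 from allogeneic cells (limma adjusted p 0.0693), which did not pass the test.

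Most further cytokine genes, named after their values were seen apart from Tnfsf10, were higher as well. Il13, which lies beside Il4, was 3.97 to 14.2 in syngeneic and 50.3 to 98.6 in Treg-treated libraries, a log2 difference of 3.09 (limma adjusted p 0.000491). Il21, a helper cytokine for B cells, had 3.55 (adjusted p 0.000126), Il10, an inhibitory cytokine, 2.12 (adjusted p 0.00212), and Il2, the T cell growth factor, 2.22 (adjusted p 0.00792), all in the limma test. The Il21 difference was 2.53 without syngeneic JL019-2 and 4.13 without syngeneic JL019-1. Il6 was at 313, 366, 283 and 412 in Treg-treated and at 12.2, 103 and 1.84 in syngeneic libraries, a difference of 4.44 (SE 0.67, limma adjusted p 2.97e-05), 5.80 without syngeneic JL019-2 and 3.20 without syngeneic JL027. Its highest syngeneic library was JL019-2. Tnfsf10, the death ligand TRAIL, was 1468 to 1570.1 against 322 to 649, a difference of 1.58 (SE 0.21, limma adjusted p 5.52e-06). Il3 and Tnfsf11 lost their calls without syngeneic JL019-2, at adjusted p 0.0622 and 0.325 in limma, and Tnfsf11 also without Treg-treated JL027-2 (0.0862). Lta and Osm were lower in Treg-treated cells, with log2 differences of -1.05 and -1.51 (limma adjusted p 0.0165 and 0.00339). The Lta call was lost without syngeneic JL019-1 (adjusted p 0.141) or JL027 (0.0992), and without JL019-2 the Osm difference was -0.78 (adjusted p 0.0288) in limma.

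Several cytotoxic granule genes were also higher. Of the 18 genes of this list in the table, 9 higher and 1 lower were called, and the median log2 difference was 2.16, while without syngeneic JL019-2 11 higher and 0 lower were called, with a median of 2.02. In allogeneic against syngeneic cells 10 higher and 0 lower were called. Gzmc, a granzyme of the same gene cluster as Gzmb, was at 4743, 5694, 1987 and 4737 in Treg-treated, 226, 123 and 179 in syngeneic and 616, 633, 701 and 837 in allogeneic libraries. Treg-treated libraries were the highest and syngeneic the lowest, with no overlap. The log2 difference was 4.54 (SE 0.35, limma adjusted p 5.01e-10) from syngeneic cells, 4.30 without syngeneic JL019-2 (adjusted p 8.79e-09), and 2.53 (SE 0.33, limma adjusted p 0.000249) from allogeneic cells. Nkg7, a granule membrane protein, was at 69923, 76994, 28461 and 41979 in Treg-treated and at 5677, 14366 and 6148 in syngeneic libraries, a difference of 2.66 (SE 0.34, limma adjusted p 3.21e-06). Ctsw, a cathepsin of cytotoxic cells, had 2.64 (limma adjusted p 1.03e-07), Fasl, the ligand of the death receptor Fas, 2.20 (adjusted p 4.58e-06), and Gzma 3.56 (adjusted p 1.01e-05), or 4.62 without syngeneic JL019-2. Prf1, the gene of the pore-forming protein perforin, was at 1555, 1452, 1187 and 917 in Treg-treated and at 1131, 541 and 1157 in syngeneic libraries and did not pass the test (log2 difference 0.49, limma adjusted p 0.238). Lamp1 was called lower, and the call was lost without syngeneic JL019-2 (adjusted p 0.166) and without Treg-treated JL019-1 or JL019-2 (0.0539 and 0.0628). Summed natural killer markers, a list that also holds Gzma and Eomes, were 4770.0 to 10708 in Treg-treated and 809 to 887 in the syngeneic libraries other than JL019-2 (4229). Of the 6 genes, 1 was called higher, Gzma, and 3 lower, Klra8, Klra4 and Eomes, with a median log2 difference of -0.69. Without syngeneic JL019-2 2 higher and 1 lower were called, with a median of -0.013. Among them, Ncr1 was at 21.3, 31.8, 21.8 and 46.3 in Treg-treated libraries. Its log2 difference was lower in Treg-treated cells with all libraries and higher without syngeneic JL019-2. The part of natural killer cells in the result was not tested.

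Both groups of genes sit in clusters: Il4, Il13 and Csf2 on chromosome 11, and Gzmc and Gzmb on chromosome 14. The 250 bases before the start of each are shown because these neighbours were all higher in Treg-treated cells. They are RefSeq sequences of build GRCm38.p6, 5′ to 3′ on the gene's strand, which is the minus strand for all 5, and all 5 were matched by symbol. RefSeq lists 2 starts for Il4, of which the outermost was used. Capitals mark 3 motifs searched on both strands: GGAAAA, the core bound by NFAT factors, TGANTCA, bound by AP-1, and TGACGTCA, the cyclic AMP response element bound by the CREB family. They overlap in none of the 5.
Il4 chr11:53618666-53618915: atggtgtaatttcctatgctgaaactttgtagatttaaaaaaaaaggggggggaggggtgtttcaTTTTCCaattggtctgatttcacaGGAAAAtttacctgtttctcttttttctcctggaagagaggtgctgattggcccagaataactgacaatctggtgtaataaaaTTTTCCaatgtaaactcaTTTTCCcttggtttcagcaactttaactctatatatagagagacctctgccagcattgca
Il13 chr11:53634703-53634952: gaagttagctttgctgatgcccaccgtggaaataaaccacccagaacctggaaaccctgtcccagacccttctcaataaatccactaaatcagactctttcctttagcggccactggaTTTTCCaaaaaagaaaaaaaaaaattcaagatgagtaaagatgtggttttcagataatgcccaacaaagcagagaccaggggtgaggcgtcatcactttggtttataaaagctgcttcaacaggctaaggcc
Csf2 chr11:54249900-54250149: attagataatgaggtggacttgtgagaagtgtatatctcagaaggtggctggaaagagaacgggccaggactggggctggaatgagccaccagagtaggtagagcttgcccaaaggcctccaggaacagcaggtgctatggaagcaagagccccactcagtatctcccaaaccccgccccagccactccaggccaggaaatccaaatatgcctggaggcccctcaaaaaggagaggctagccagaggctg
Gzmb chr14:56262335-56262584: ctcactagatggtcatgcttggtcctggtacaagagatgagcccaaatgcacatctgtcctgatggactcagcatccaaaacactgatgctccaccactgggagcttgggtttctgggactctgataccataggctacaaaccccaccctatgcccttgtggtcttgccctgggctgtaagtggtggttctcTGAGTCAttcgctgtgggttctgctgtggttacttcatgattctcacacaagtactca
Gzmc chr14:56234658-56234907: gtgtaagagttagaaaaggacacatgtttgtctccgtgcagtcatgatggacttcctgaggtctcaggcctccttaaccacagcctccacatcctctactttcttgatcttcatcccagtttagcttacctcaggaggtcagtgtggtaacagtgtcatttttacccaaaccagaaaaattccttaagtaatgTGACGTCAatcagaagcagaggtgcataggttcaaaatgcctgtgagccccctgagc
The letters GGAAAA stand 4 times in the Il4 window and 1 time in that of Il13, and 20.4% of 32851 RefSeq promoter windows of this length hold them. TGANTCA stands 1 time, before Gzmb (6.75% of windows), and TGACGTCA 1 time, before Gzmc (1.55% of windows). The Csf2 window holds none of the 3, which says only that these letters are not in this window. A match is a description of the sequence and not evidence of a bound factor.

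Serpins and Ctla2 inhibitors, several of which block granule or lysosomal proteases, were mostly higher too. Of the 8 genes of this list in the table, 6 higher and 0 lower were called, and the median log2 difference was 3.25, while without syngeneic JL019-2 7 higher and 0 lower were called, with a median of 3.08. Serpinb9, which inhibits granzyme B, was at 25842, 20492, 18919 and 14561 in Treg-treated and at 1967, 1025 and 3095 in syngeneic libraries, a difference of 3.41 (SE 0.26, limma adjusted p 4.77e-10). Serpinb6b, an intracellular serpin, had 3.59 (limma adjusted p 1.98e-11). The groups did not overlap for either gene. In allogeneic against syngeneic cells 7 higher and 0 lower were called, and against allogeneic cells 0 higher and 1 lower of the list were called.

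Chemokine genes depended on the syngeneic libraries used. Of the 8 genes of this list in the table, 2 higher and 0 lower were called, and the median log2 difference was 0.86, while without syngeneic JL019-2 5 higher and 0 lower were called, with a median of 1.64. Without Treg-treated JL027-1, where 27.8% of all genes were called, 4 higher and 0 lower of the list were. Ccl1, a ligand of Ccr8, was at 16332, 16301, 5745 and 14478 in Treg-treated, 1081, 381 and 563 in syngeneic and 1420.0, 2598, 4152 and 3330.4 in allogeneic libraries. The Treg-treated libraries were highest, JL027-1 being the lowest of them. The difference from syngeneic cells was 4.31 (SE 0.52, limma adjusted p 1.03e-06). Ccl4, an inflammatory chemokine, was 4218 to 10007 in Treg-treated and 1129 to 2041 in syngeneic libraries, a difference of 2.13 (SE 0.34, limma adjusted p 6.79e-05). Ccl3 was at 4882, 6705, 2931 and 4571 in Treg-treated and at 919, 4341 and 1472 in syngeneic libraries. Syngeneic JL019-2, whose summed myeloid markers were 945490 against 23792 to 30659.6 in the others, overlapped the Treg-treated libraries, and Ccl3 was called without it (log2 difference 1.98, limma adjusted p 0.00479) and not with all libraries (1.34 and 0.0556). It was also called without Treg-treated JL027-1 (1.56, limma adjusted p 0.0253) and with libraries centred on their medians (1.65, adjusted p 0.0214).

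Of 11 inflammatory chemokine receptors, 4 higher and 0 lower were called, with a median log2 difference of 0.51, and without syngeneic JL019-2 6 higher and 1 lower were called, with a median of 1.02. Beside Cxcr6 they included Cxcr3, the receptor of interferon-induced chemokines, at 7523 to 8601 against 1376 to 2696, and Ccr8, with a log2 difference of 2.54. For Ccr8 the difference was 1.78 without syngeneic JL019-2 and 3.13 without syngeneic JL027, and with only the compared groups in the model it was not called (limma adjusted p 0.0537). The allogeneic libraries were at 7825 to 8803 for Cxcr3, overlapping the Treg-treated ones, and in allogeneic against syngeneic cells 5 higher and 1 lower of the list were called. Of 16 gut-homing and tissue-retention genes, 7 higher and 0 lower were called, and without syngeneic JL019-2 8 higher and 1 lower were called, with a median of 0.59. Itgb1, an integrin chain, was at 25475, 25926, 39096 and 23455 in Treg-treated and at 13895, 5169.9 and 11398 in syngeneic libraries, a difference of 1.58 (SE 0.25, limma adjusted p 4.86e-05). Gpr183, an oxysterol receptor that positions cells in lymphoid tissue, had a difference of 1.83 and Itga2, a collagen-binding integrin chain, 2.59. Itgb7, the integrin chain of gut homing, was at 16556 to 22732 in Treg-treated and 9506 to 39279 in syngeneic libraries and did not pass the test (limma adjusted p 0.819). The groups overlapped.

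Genes of naive T cells and lymph node homing were mostly lower. Of 18 in the list, 1 higher and 12 lower were called, with a median log2 difference of -2.41, and without syngeneic JL019-2 0 higher and 13 lower were called, with a median of -3.09. In allogeneic against syngeneic cells 1 higher and 11 lower were called, with a median of -2.24. Ccr7, which guides T cells into lymph nodes, was at 1684, 2053, 1531 and 1788 in Treg-treated and at 19451, 4246 and 20487 in syngeneic libraries, a difference of -2.76 (SE 0.42, limma adjusted p 2.73e-05) and -3.51 without syngeneic JL019-2 (adjusted p 8.36e-08). Syngeneic JL019-2 lay between the rest of its group and the Treg-treated libraries. Ly6c1, a surface marker, was at 773, 1059, 306 and 626 in Treg-treated and at 11108, 5491 and 10749 in syngeneic libraries, a difference of -3.78 (SE 0.34, limma adjusted p 6.16e-09). Il6ra, a receptor chain for interleukin 6, had a difference of -3.63 (-4.27 without syngeneic JL019-2) and Treml2 -3.07, and in both the groups did not overlap. Il7r, the receptor chain for interleukin 7, was the exception, higher by 1.48 (limma adjusted p 0.00931), a call that was lost without syngeneic JL019-2 (adjusted p 0.0537).

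Transcription factors split by role. Of 12 stem and memory factors 0 higher and 5 lower were called, and without syngeneic JL019-2 0 higher and 7 lower were called, with a median of -1.11. Bach2, which restrains effector differentiation, was at 113, 66.9, 185 and 80.3 in Treg-treated and at 1374, 412 and 1188 in syngeneic libraries, a difference of -3.08 (SE 0.45, limma adjusted p 1.99e-05). Lef1 was at 2069, 2808, 2289 and 2425 in Treg-treated and at 9077, 2165 and 8749 in syngeneic libraries, a difference of -1.22 (SE 0.29, limma adjusted p 0.00372) and -1.90 without syngeneic JL019-2 (adjusted p 4.33e-09). The call was lost without syngeneic JL019-1 (-0.87, limma adjusted p 0.0558) or JL027 (-0.90, adjusted p 0.0504). Lef1 in syngeneic JL019-2 lay within the Treg-treated range. Tcf7, a factor of stem-like T cells, was at 2825, 3833, 5670.4 and 4422 in Treg-treated and at 21962, 2423 and 17815 in syngeneic libraries. It was not called with all libraries (log2 difference -1.28, limma adjusted p 0.0754). It was called without syngeneic JL019-2, which lay under all 4 Treg-treated libraries, at -2.28 (limma adjusted p 9.03e-05), and without Treg-treated JL027-1, at -1.44 (adjusted p 0.0444). Tcf7, Ccr7 and Lef1 were each lower in syngeneic JL019-2, the library with fewer T cell markers, than in the rest of its group.

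Of 16 effector factors, 11 higher and 1 lower were called, with a median of 1.69, and without syngeneic JL019-2 11 higher and 2 lower were called, with a median of 1.21. Maf, a factor of interleukin 4 and 10 expression, was at 2324, 2733, 2849 and 2795 in Treg-treated and at 417, 180.1 and 607 in syngeneic libraries, a difference of 2.90 (SE 0.26, limma adjusted p 6.16e-09). Id2, an inhibitor of E proteins, was at 41892, 44627, 26111 and 38371 in Treg-treated and at 5626, 9525 and 5684 in syngeneic libraries, a difference of 2.46 (SE 0.25, limma adjusted p 5.13e-08). Tbx21, the master factor of T helper 1 cells, and Gata3, that of T helper 2 cells, had 1.90 and 2.07 (limma adjusted p 0.00116 and 0.000354), and 1.31 and 1.24 without syngeneic JL019-2. Hopx and Stat4 had differences of 1.79 and 1.59. In allogeneic against syngeneic cells 12 higher and 2 lower of the list were called. Eomes was called lower, at 176 to 269 against 253 to 554 (limma adjusted p 0.0498), although the groups overlapped, and the call was lost without any 1 of 5 of the 7 libraries (adjusted p 0.0712 to 0.278). Of 9 exhaustion-associated factors 3 higher and 0 lower were called, and without syngeneic JL019-2 1 higher and 1 lower were called, with a median of -0.0047 (22.2%, against 27.6% of all genes). Batf, an AP-1 family factor, kept its call, at 18347, 21689.7, 9640.0 and 14979 in Treg-treated and at 3005, 2032 and 3105 in syngeneic libraries, a difference of 2.54 (SE 0.25, limma adjusted p 4.66e-08), while Ikzf3 and Tox2 did not (limma adjusted p 0.0557 and 0.17 without that library). The Tox2 call was also lost without Treg-treated JL019-2 or JL027-2 (limma adjusted p 0.0589 and 0.0605).

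Costimulatory and inhibitory receptors were both mostly higher. Of 14 costimulatory receptors 11 higher and 0 lower were called, and without syngeneic JL019-2 10 higher and 0 lower were called, with a median of 1.09. Of 16 inhibitory receptors 10 higher and 0 lower were called, and without syngeneic JL019-2 11 higher and 1 lower were called, with a median of 2.08. In allogeneic against syngeneic cells 10 higher and 0 lower costimulatory and 11 higher and 0 lower inhibitory receptors were called. Icos, a CD28 family costimulator, was at 22341, 24324, 19304 and 20506 in Treg-treated and at 1817, 800.4 and 3001 in syngeneic libraries, a difference of 3.72 (SE 0.32, limma adjusted p 3.58e-09). Tnfrsf4 (OX40) was at 48769, 62436, 22196 and 32943 in Treg-treated and at 3009.6, 1201 and 3718 in syngeneic libraries, a difference of 4.02 (SE 0.35, limma adjusted p 3.59e-09), with JL027-1 the lowest Treg-treated library.

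Pdcd1, the inhibitory receptor PD-1, was at 24079, 19154, 14439 and 15040.3 in Treg-treated, 1863, 579.9 and 2016 in syngeneic and 8702, 10570.1, 8619 and 10422 in allogeneic libraries. The Treg-treated libraries were highest and the groups did not overlap. The difference from syngeneic cells was 3.78 (SE 0.30, limma adjusted p 9.14e-10), and from allogeneic cells 0.90 (SE 0.28, limma adjusted p 0.0258). Ctla4, a competitor of CD28 for its ligands, was at 17334, 18511, 7978 and 8478 in Treg-treated and at 907, 239 and 1103 in syngeneic libraries, a difference of 4.29 (SE 0.44, limma adjusted p 7.08e-08), 3.60 without syngeneic JL019-2. Tigit, Havcr2 (Tim-3) and Lag3 had differences of 3.72, 3.01 and 2.89, with no overlap of the groups. Of 10 killer lectin-like receptors 4 higher and 0 lower were called, and without syngeneic JL019-2 7 higher and 0 lower were called, with a median of 1.76. Klrd1, the partner of NKG2A, was at 5122, 4509, 1405 and 3195 in Treg-treated and at 169, 1228 and 307 in syngeneic libraries, a difference of 2.99 (SE 0.47, limma adjusted p 4.64e-05), 3.80 without syngeneic JL019-2 and 2.37 without syngeneic JL019-1. Syngeneic JL019-2 came near the lowest Treg-treated library, JL027-1. Klrc1 has a close copy, Klrc2, from which its reads may not be told apart. The Klrc2 difference was 3.59 (SE 0.54, limma adjusted p 2.47e-05), 4.84 without syngeneic JL019-2 and 2.63 without syngeneic JL027.

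Of 18 interleukin and interferon receptors 11 higher and 3 lower were called, and without syngeneic JL019-2 8 higher and 4 lower were called, with a median of 0.75. The chains of the interferon gamma receptor went opposite ways. Ifngr1, the ligand-binding chain, was at 23237, 24436, 20719 and 17984 in Treg-treated, 6337, 6119 and 6598 in syngeneic and 38129, 31599, 35694 and 34834 in allogeneic libraries, higher than in syngeneic cells by 1.76 (SE 0.19, limma adjusted p 1.76e-07) and lower than in allogeneic cells, with -0.71 (SE 0.18, limma adjusted p 0.0131). Ifngr2, the signalling chain, was at 422, 579, 161 and 369 in Treg-treated, 1537, 3639.8 and 1437 in syngeneic and 88.1, 73.8, 73.6 and 45.6 in allogeneic libraries, lower than in syngeneic cells, at -2.52 (SE 0.37, limma adjusted p 2.13e-05), and higher than in allogeneic cells, at 2.33 (SE 0.35, limma adjusted p 0.000681). For both chains the Treg-treated libraries lay between the other groups with no overlap. Il12rb2, which makes T cells responsive to interleukin 12, was at 1205, 1109, 6099 and 1280.4 in Treg-treated, 186, 60.1 and 265 in syngeneic and 6022, 5759.7, 6386 and 6355 in allogeneic libraries. JL027-1 stood at the allogeneic level and the other 3 Treg-treated libraries well under it. The difference from syngeneic cells was 3.63 (SE 0.54, limma adjusted p 2.12e-05), 3.01 without syngeneic JL019-2 and close to that, 3.05, without Treg-treated JL027-1. It was 2.53 for Il1rl1, the receptor of interleukin 33.

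**Figure D3:**
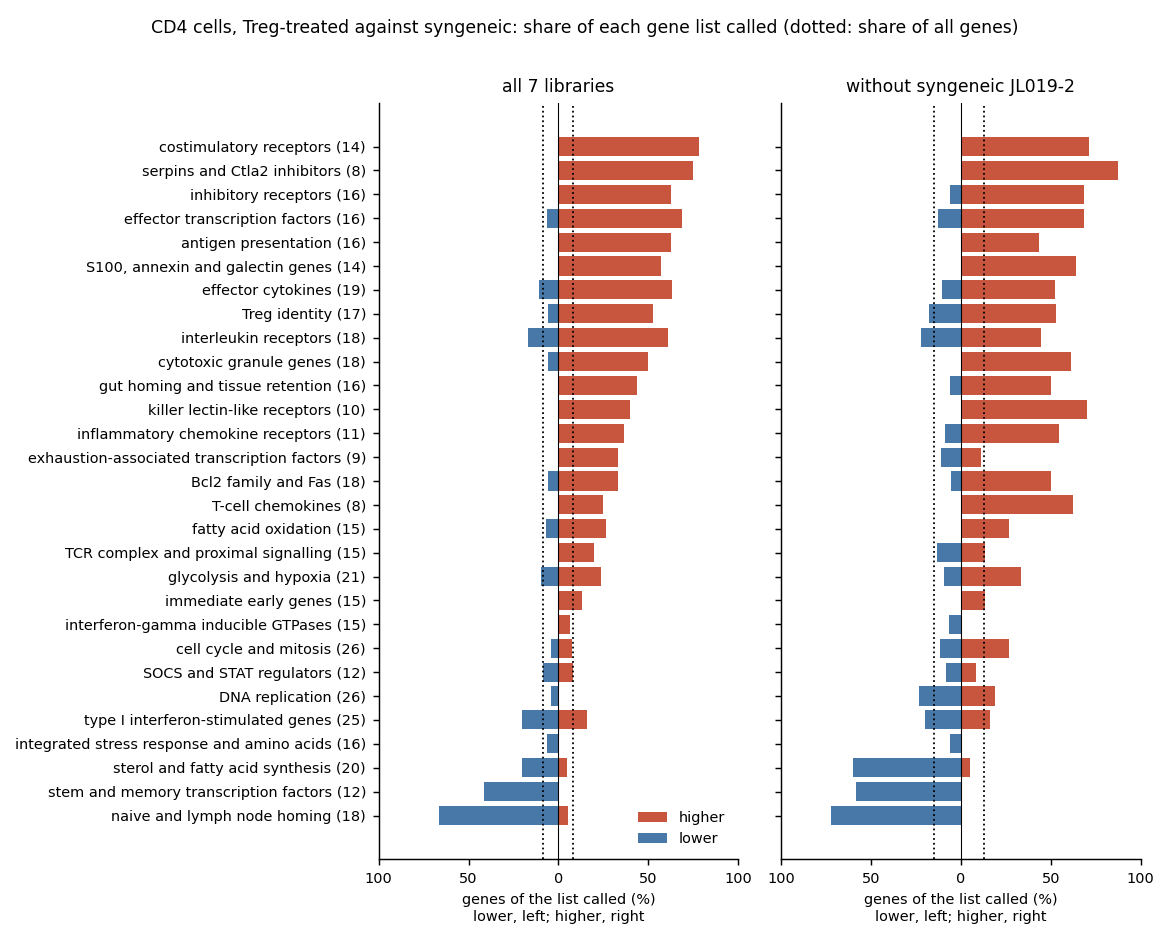
Share of each of 29 gene lists (number of genes in brackets) that limma called higher (right) or lower (left) in Treg-treated than in syngeneic CD4 cells, with all 7 libraries and without syngeneic JL019-2. Dotted lines mark the share of all genes, 8.23% higher and 8.43% lower on the left, 12.8% and 14.8% on the right.

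Genes of the Treg identity list were read with the receptors above, since 7 of its genes, Ctla4, Tnfrsf4, Tnfrsf18, Il2ra, Klrg1, Ccr8 and Itgae, also stand in other lists. The first 4 and Ccr8 are 5 of its 9 higher genes, so the counts repeat them. Of the 17 genes of this list in the table, 9 higher and 1 lower were called, and the median log2 difference was 1.21, while without syngeneic JL019-2 9 higher and 3 lower were called, with a median of 0.81. Tnfrsf18 (GITR) was at 32226, 42842, 14936 and 25899 in Treg-treated and at 5564, 2922 and 5079.8 in syngeneic libraries, a difference of 2.63 (SE 0.29, limma adjusted p 2.82e-07), and Rgs1, a regulator of G protein signalling, had a difference of 2.37. Ikzf2 and Itgae did not pass the test (limma adjusted p 0.557 and 0.619), though Ikzf2 did without syngeneic JL027 (0.97, adjusted p 0.0412). Gpr83, a receptor enriched in Treg, was lower, with -3.13 (limma adjusted p 0.000146), or -3.95 without syngeneic JL019-2. Foxp3 itself was at 127 to 178 in Treg-treated libraries, under both syngeneic libraries other than JL019-2.

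For genes of the TCR complex the share called was close to that of all genes. Of 15 genes 3 higher and 0 lower were called, a share of 20% against 16.7%, and without syngeneic JL019-2 2 higher and 2 lower were called, with a median of -0.11 against 0.55 with it, a share of 26.7% against 27.6%. With libraries centred on their medians 8 higher and 0 lower were called (53.3%), against 22.2% of all genes (16.6% higher and 5.55% lower). Cd3d and Cd3g, chains of the CD3 complex, had 1.38 and 1.39, and 1.11 and 1.04 without syngeneic JL019-2 (limma adjusted p 0.0168 and 0.0213). Cd3e was at 19916, 25572, 16599.6 and 19262 in Treg-treated and at 21298, 5737 and 18989.6 in syngeneic libraries and its difference of 0.60 became -0.0016 without that library, where it was not called (adjusted p 0.995), as with all libraries (adjusted p 0.119 in limma). Without syngeneic JL019-1 or JL027 it was called (limma adjusted p 0.0212 and 0.0478). Of 15 immediate early genes 2 higher and 0 lower were called, a share of 13.3% against the background of 16.7%. Without syngeneic JL019-2 2 higher and 0 lower were called (13.3%, against 27.6% of all genes). With all libraries they were Nfkbia, an inhibitor of NF-κB, with 1.25, and Dusp2, a phosphatase, with 1.17. Without syngeneic JL027 neither was called (limma adjusted p 0.209 and 0.063), nor was Nfkbia without Treg-treated JL019-1 or JL019-2 (adjusted p 0.0919 and 0.122). Of 12 SOCS and STAT genes 1 higher and 1 lower were called, Stat4 and Socs3, at the background share of 16.7%. Without syngeneic JL019-2 1 higher and 1 lower were called (16.7%, against 27.6% of all genes), and without Treg-treated JL027-1 2 higher and 2 lower (33.3%, against 27.8% of all genes). Socs3, with -1.39 (limma adjusted p 0.0453), was at -2.11 without syngeneic JL019-2 and lost its call without any 1 of 5 other libraries (adjusted p 0.0793 to 0.312).

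For proliferation genes the share called moved with the libraries used, from under the 16.7% of all genes with all libraries to above the share of all genes without either of 2 libraries. Of 26 cell cycle genes 2 higher and 1 lower were called, and of 26 DNA replication genes 0 higher and 1 lower, shares of 11.5% and 3.85%. Without syngeneic JL019-2 the counts were 7 higher and 3 lower and 5 higher and 6 lower, shares of 38.5% and 42.3% against 27.6% of all genes. Without Treg-treated JL027-1 they were 4 higher and 6 lower and 2 higher and 9 lower, shares of 38.5% and 42.3% against 27.8% of all genes (13.5% higher and 14.3% lower). Mki67, the standard proliferation marker, was at 3461, 3234, 6727 and 3911 in Treg-treated and at 6899.7, 4989 and 5167 in syngeneic libraries, with overlapping groups and a difference of -0.44 (SE 0.26, limma adjusted p 0.254). Without Treg-treated JL027-1 it was called lower (-0.67, limma adjusted p 0.0468). Cenpa, the centromeric histone, was higher, with 1.14, and Mcm7, a subunit of the replicative helicase, lower, with -0.74 (limma adjusted p 0.00418 and 0.0131). The Mcm7 call was lost without Treg-treated JL019-1 or syngeneic JL019-1 (limma adjusted p 0.0516 and 0.0686).

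Metabolic lists were mixed. Of 21 glycolysis and hypoxia genes 5 higher and 2 lower were called, and without syngeneic JL019-2 7 higher and 2 lower were called, with a median of 0.17. Ldha, the lactate dehydrogenase chain of glycolytic cells, was at 101016, 100927, 96053 and 98000.1 in Treg-treated and at 62902, 50495 and 58552 in syngeneic libraries, a difference of 0.79 (SE 0.17, limma adjusted p 0.00168). Pdk1, a pyruvate dehydrogenase kinase, was at 535, 536, 1093 and 446 in Treg-treated, 6624, 1878 and 6341 in syngeneic and 2294, 1389, 1651 and 2054 in allogeneic libraries. Treg-treated cells were lower than syngeneic cells, at -2.81 (SE 0.34, limma adjusted p 1.28e-06) (-3.40 without syngeneic JL019-2), and lower than allogeneic cells, at -1.57 (SE 0.32, limma adjusted p 0.00635). Of 15 fatty acid oxidation genes 4 higher and 1 lower were called (33.3%, against 16.7% of all genes). With libraries centred on their medians 7 higher and 0 lower were called (46.7%, against 22.2% of all genes). Without syngeneic JL019-2 4 higher and 0 lower were called (26.7%, against 27.6% of all genes), the lower call, Acadm, being lost. Slc25a20, the carnitine carrier of mitochondria, had a difference of 1.23 and Acadl, an acyl-CoA dehydrogenase, 0.74. Of 20 sterol and fatty acid synthesis genes 1 higher and 4 lower were called, 1 higher and 12 lower without syngeneic JL019-2 and 1 higher and 9 lower without Treg-treated JL027-1. Hmgcs1, an early enzyme of sterol synthesis, was at 569.9, 613, 1812 and 809.6 in Treg-treated and at 2104, 714 and 2668 in syngeneic libraries, not called with all libraries (limma adjusted p 0.0927) and called without syngeneic JL019-2 (log2 difference -1.48, adjusted p 0.00368) or Treg-treated JL027-1 (-1.27, adjusted p 0.0092). Of 16 integrated stress response and amino acid genes 0 higher and 1 lower were called. Without syngeneic JL019-2 0 higher and 1 lower were called (6.25%, against 27.6% of all genes), and without Treg-treated JL027-1 1 higher and 3 lower (25%, against 27.8% of all genes).

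Interferon-stimulated genes went both ways. Of 25 type I interferon-stimulated genes 4 higher and 5 lower were called (36%, against 16.7% of all genes). Without syngeneic JL019-2 4 higher and 5 lower were called (36%, against 27.6% of all genes), and without Treg-treated JL027-1 4 higher and 10 lower (56%, against 27.8% of all genes). Ifi27l2a was at 80301, 89501, 43516 and 85767 in Treg-treated, 21408, 20954 and 13727 in syngeneic and 27570.2, 19296, 29963 and 29114 in allogeneic libraries, higher than in both other groups, with a difference of 1.97 (SE 0.27, limma adjusted p 7.62e-06) from syngeneic and 1.46 (SE 0.25, limma adjusted p 0.00241) from allogeneic cells. Ifit2 was at 458, 395, 1306 and 553 in Treg-treated and at 2041, 1087 and 1979.8 in syngeneic libraries, a difference of -1.44 (SE 0.33, limma adjusted p 0.0034), although Treg-treated JL027-1 overlapped the syngeneic libraries. Oas2 and Usp18 were lower as well, with -2.20 and -0.81 (limma adjusted p 0.0119 and 0.00874). Both calls were lost without syngeneic JL019-1 (limma adjusted p 0.0912 and 0.104). Of 15 interferon gamma-inducible GTPases 1 higher and 0 lower were called (6.67%, against 16.7% of all genes). Without syngeneic JL019-2 0 higher and 1 lower were called (6.67%, against 27.6%), and without Treg-treated JL027-1 0 higher and 0 lower (against 27.8%). With libraries centred on their medians 5 higher and 0 lower were called (33.3%, against 22.2% of all genes). Of 16 antigen presentation genes 10 higher and 0 lower were called, and 7 higher and 0 lower without syngeneic JL019-2. After quantile normalisation, where 17.1% of all genes were called (9.89% higher and 7.25% lower), it was 3 higher and 0 lower. The count depended on the scaling. H2-K1, a class I heavy chain, was at 154149, 155984, 84578 and 136286 in Treg-treated and at 94829, 57033 and 72979 in syngeneic libraries, a difference of 0.81 (SE 0.21, limma adjusted p 0.0078), and B2m, its light chain, had 0.95 (limma adjusted p 0.0231), a call lost without any 1 of 5 of the 7 libraries (adjusted p 0.0534 to 0.0854). Treg-treated JL027-1 was the lowest of its group for both, and for H2-K1 it overlapped the syngeneic libraries. Class I genes are close copies of each other, so counts of single members are uncertain.

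Survival genes and S100, annexin and galectin genes completed the lists. Of 18 Bcl2 family and Fas genes 6 higher and 1 lower were called, and without syngeneic JL019-2 9 higher and 1 lower were called, with a median of 0.67. Bcl2a1b and Bcl2a1d, near-identical copies of a survival gene between which reads may have been divided, had differences of 3.24 and 3.25. Bcl2 was at 2642, 2993, 2727 and 2758 in Treg-treated and at 7463, 2637 and 7751 in syngeneic libraries, a difference of -0.94 (SE 0.24, limma adjusted p 0.00768) and -1.45 without syngeneic JL019-2 (adjusted p 1.09e-06). The call was lost without syngeneic JL019-1 or JL027 (limma adjusted p 0.081 and 0.0862). In Bcl2, syngeneic JL019-2 lay just under the Treg-treated range. Of 14 S100, annexin and galectin genes 8 higher and 0 lower were called, and without syngeneic JL019-2 9 higher and 0 lower were called, with a median of 1.35. Lgals1, the gene of galectin-1, was at 132293, 135785, 59062 and 100134 in Treg-treated and at 25036, 26569 and 26725 in syngeneic libraries, a difference of 1.96 (SE 0.29, limma adjusted p 2.46e-05). S100a4, a calcium-binding protein of effector cells, had 2.34 (limma adjusted p 1.89e-05).

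Genes that differed from both the syngeneic and the allogeneic group placed Treg-treated cells more finely. The contrasts share libraries, so the values are given side by side. Genes higher than in both groups were led by Gzmc, Crem, Sostdc1, Ifi27l2a and Igfbp7. Crem, a cyclic AMP-responsive regulator, was at 2579, 3074, 1689.8 and 2385 in Treg-treated, 351, 341 and 373 in syngeneic and 998, 871, 1000.4 and 858 in allogeneic libraries. The Treg-treated libraries were highest and syngeneic ones lowest, with no overlap. The difference was 2.74 (SE 0.21, limma adjusted p 4.08e-10) from syngeneic cells and 1.35 (SE 0.19, limma adjusted p 0.00059) from allogeneic cells. Sostdc1, a secreted antagonist of bone morphogenetic protein and Wnt signals, was at 1304, 1932, 1949 and 3083 in Treg-treated, 118, 65 and 57.7 in syngeneic and 104, 104, 263 and 423 in allogeneic libraries. Syngeneic and allogeneic libraries overlapped, and all 4 Treg-treated libraries lay above them. The difference was 4.67 (SE 0.60, limma adjusted p 2.73e-06) from syngeneic and 3.40 (SE 0.55, limma adjusted p 0.00179) from allogeneic cells. Igfbp7, a secreted binding protein, had 3.09 and 2.25 (limma adjusted p 5.76e-06 and 0.00241).

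Genes between the groups on the high side were led by Sytl3, Prdm1, Med12l, Slc2a8 and Zcchc18. Prdm1, which encodes the effector regulator Blimp-1, was at 740.3, 799.8, 1031 and 634 in Treg-treated, 348, 153 and 368 in syngeneic and 2317, 2039, 1724 and 2123 in allogeneic libraries. The groups stood in the order syngeneic, Treg-treated, allogeneic with no overlap. The difference from syngeneic cells was 1.54 (SE 0.27, limma adjusted p 0.0002), and from allogeneic cells -1.37 (SE 0.25, limma adjusted p 0.00348). Sytl3, a protein of vesicle transport, was 393 to 861, 2805 to 3772 and 5312 to 8403 in the same order, and Slc2a8, a hexose transporter, 108 to 235, 355 to 851 and 1112 to 2413.

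Genes between the groups on the low side included Ifngr2, Dapl1, Myo6 and Ldhb. Myo6, an unconventional myosin, was at 1168, 1331, 2932 and 2259.6 in Treg-treated, 13504, 2645 and 13531 in syngeneic and 196, 221, 261 and 261 in allogeneic libraries, a difference of -2.13 (SE 0.43, limma adjusted p 0.000849) from syngeneic (-2.91 without JL019-2) and 2.94 (SE 0.40, limma adjusted p 0.000351) from allogeneic cells. The allogeneic libraries were lowest. The 2 Treg-treated JL027 libraries were highest in their group, and syngeneic JL019-2 lay in the Treg-treated range. Dapl1, a gene of naive T cells, was 3317 to 5275 in syngeneic, 209 to 695 in Treg-treated and 71.9 to 106 in allogeneic libraries, and Ldhb 913 to 1157, 282 to 343 and 92.8 to 188.

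Genes lower than in both groups were led by Pxylp1, Dzip1, Adgrg5, Man1c1 and Bbs9. Pxylp1, a phosphatase of proteoglycan synthesis, was at 280.2, 244, 402 and 241 in Treg-treated, 1389, 1192 and 1142 in syngeneic and 1010.3, 733, 767 and 853 in allogeneic libraries. Syngeneic libraries were highest and Treg-treated ones lowest, with no overlap. The difference was -2.11 (SE 0.25, limma adjusted p 7.42e-07) from syngeneic and -1.54 (SE 0.23, limma adjusted p 0.000681) from allogeneic cells. For the other 4, the differences from syngeneic cells lay between -3.12 and -1.83, and those from allogeneic cells between -2.52 and -1.07, again with no overlap. Without syngeneic JL019-2 the differences of Dzip1 and Adgrg5 from syngeneic cells were -3.31 and -3.79, against -2.65 and -3.12 with it.

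**Figure D4:**
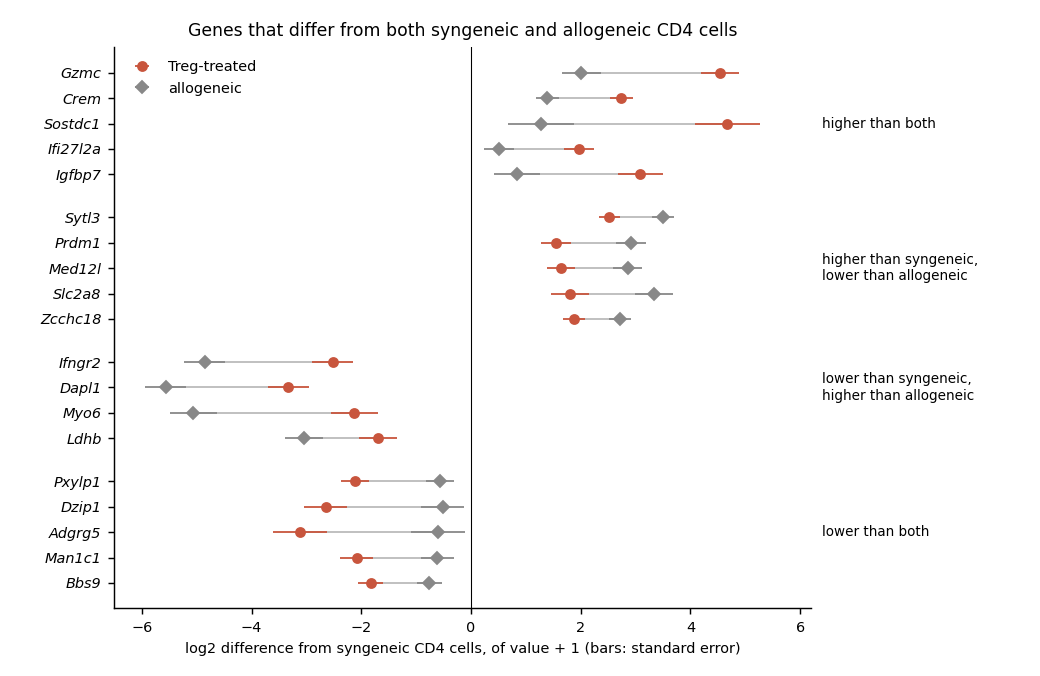
Log2 difference from syngeneic CD4 cells (with standard errors) of Treg-treated (circles) and allogeneic CD4 cells (diamonds) for up to 5 leading genes in each of 4 classes. Both differences use the same syngeneic libraries. Gzmc stood at 4.54 in Treg-treated and 2.01 in allogeneic cells, and Prdm1 at 1.54 and 2.91.

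Gcg, the gene of proglucagon, was named after its values were seen. It was at 802, 945, 573 and 1050.5 in Treg-treated, 236, 167 and 350.4 in syngeneic and 3.29, 5.03, 10.2 and 11.8 in allogeneic libraries. Treg-treated libraries were highest and allogeneic ones lowest, with no overlap between the 3 groups. The difference from syngeneic cells, 1.77 (SE 0.64, limma adjusted p 0.0576), did not pass the test, nor did 1.51 without syngeneic JL019-2 (adjusted p 0.124). Without Treg-treated JL027-1 it passed (1.95, limma adjusted p 0.0398).

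The same change was compared with that in 4 Treg-treated and 3 syngeneic CD8 libraries by a test of the difference, in which limma called 909 genes (5.43%), 381 more positive (2.28%) and 528 more negative (3.15%) in CD4 cells. Pdcd1 and Havcr2 had differences of 3.78 and 3.01 in CD4 cells and 7.64 and 7.21 in CD8 cells, lower in CD4 cells by limma's test of the difference (adjusted p 1.93e-06 and 9.38e-07). Levels in the CD8 libraries are not given here. Changes this large can depend on the pseudocount where the lower group has few reads. Ccr9 and Cxcr3 had 4.50 and 1.92 in CD4 cells and 0.80 and -0.88 in CD8 cells, higher in CD4 cells by the limma test (adjusted p 1.19e-05 and 9.38e-07). The count was 1120 without CD4 syngeneic JL019-2, 1813 without CD4 Treg-treated JL027-1 and 222 with only the compared groups in the model. The gene values in this paragraph use all libraries.

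The receptor repertoire of the same libraries gave a readout apart from gene expression. TRB clonality, which is 0 when all clonotypes are equally frequent and 1 when a single clonotype holds every read, was 0.166, 0.148, 0.165 and 0.174 in Treg-treated and 0.0358, 0.044 and 0.0786 in syngeneic CD4 libraries. Every Treg-treated library was above every syngeneic one. The means were 0.163 ± 0.0108 (SD, n = 4) and 0.0528 ± 0.0227 (SD, n = 3). The two-sided exact permutation p was 0.0571, the smallest that 4 against 3 libraries allow, so the threshold of 0.05 could not be reached. Without syngeneic JL019-2 the difference was 0.106 (exact permutation p 0.133, again the smallest possible), against 0.111 with it.

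The number of TRB clonotypes in draws of 8194 reads, the total of the series' shallowest library, was 2489, 2715, 2514 and 2607 in Treg-treated and 5762, 5101 and 3573 in syngeneic libraries. Treg-treated libraries were all lower, and syngeneic JL027 was the lowest of its group. The exact permutation p was again 0.0571. Without draws to equal reads the groups overlapped, at 5669, 6444, 4479 and 4257 in Treg-treated and 9441, 7824 and 5009 in syngeneic libraries (exact permutation p 0.171). The 10 largest TRB clonotypes held 17.3% to 23.8% of reads in Treg-treated, 5.59% to 10.8% in syngeneic and 9.49% to 14.6% in allogeneic libraries. Allogeneic libraries lay between the groups in clonality, at 0.101, 0.121, 0.11 and 0.12. For the alpha chain (TRA), clonality was 0.156, 0.146, 0.211 and 0.14 in Treg-treated and 0.0809, 0.0631 and 0.12 in syngeneic libraries. JL027-1 was the highest, and its largest TRA clonotype held 14.5% of reads against 2.4% to 3.54% in the other Treg-treated libraries.

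**Figure D5:**
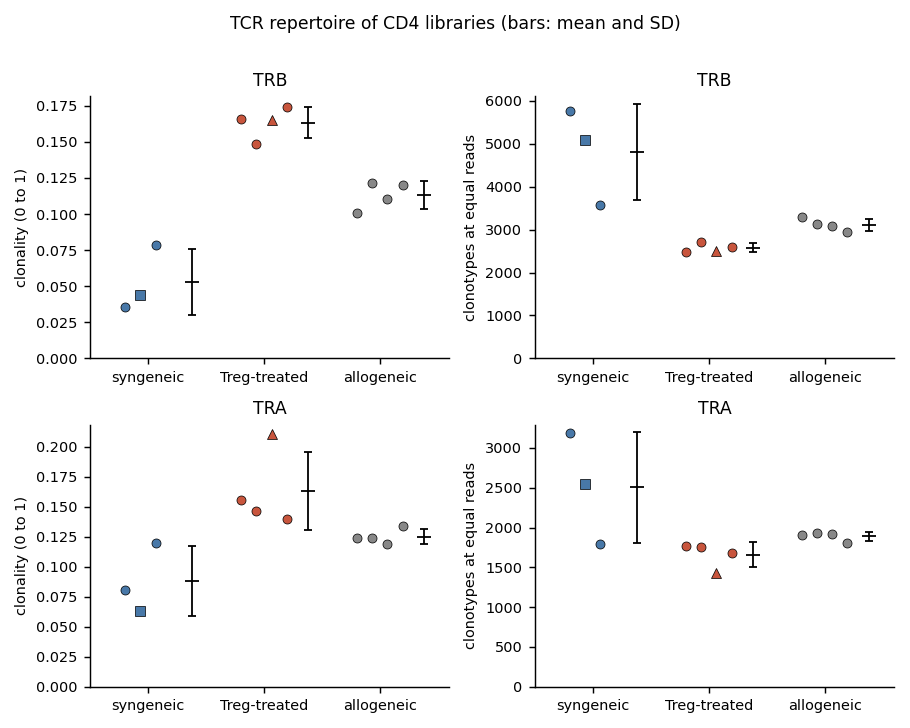
Clonality (left) and number of clonotypes at equal reads (right) of the TRB and TRA chains in each CD4 library, with mean and SD per group. Treg-treated libraries lie above the syngeneic ones in TRB clonality and below them in TRB clonotypes, with allogeneic libraries between.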

How the data were processed

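RNA was measured in 31 libraries and T-cell receptor clonotypes in the same libraries. The deposited table holds 16741 genes as signal values, counts that the authors scaled between libraries and that are not whole numbers. Per the submitters' processing notes, FastQC 0.11.7, kallisto and DESeq2 were used with builds GRCm38 and mm10, with no role given for either build. The same table carries the authors' log2 fold changes, their standard errors, test scores and p-values for a comparison that the file headers do not name, and these were not used. The clonotype tables hold read counts per clonotype and, per the file headers, each as a percent of the library, by the authors.

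Scaled values were read as log2(value + 1) and fitted with limma 3.58.1 in R 4.3.3, with trended and robust variance, over all genes and all 31 libraries in 1 model, with a mean value of at least 1 required, and p-values were adjusted by Benjamini-Hochberg over all genes at a threshold of 0.05. A count model had been planned in case the files held counts. Because the deposited values are scaled, limma on the log scale was used. No library was dropped or imputed, and no pair of libraries held the same values. The members and gene lists were chosen with earlier results of these data known.

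Genes were named by rule: lineage genes, the 10 higher and 10 lower genes with the lowest p among those called with and without syngeneic JL019-2 and not overlapping, up to 4 genes with the lowest p per list, and up to 5 genes per class against both other groups. Il13, Il2, Il3, Il10, Il21, Gcg, Cd3d, Cd3g, Cd3e, Ccr7, Tcf7, Il6ra, Lta, Osm, Lamp1, Eomes, Bcl2, Il7r, Il6, Gzma, Lag3, B2m, Ncr1, Mki67, Tbx21, Gata3, Prf1, Itgb7, Gpr83, Tnfsf11, Hmgcs1, Itgae and Ikzf2 were named outside this rule, after their values were seen, as were Klra8, Klra4, Acadm, Il2ra and Klrg1, and Fas only as the partner of a named gene. A few genes that the rule names are not reported here. Clonality was 1 minus the normalised Shannon entropy, as the mean of 20 draws at equal reads, with TRB totals of 14479 to 30048 reads in the 7 libraries, and was compared by exact two-sided permutation. Reads without molecular identifiers are not independent molecules. Promoter windows and genomic spans come from RefSeq, build GRCm38.p6, and spans were found for 15855 genes (94.7%). Python 3.11.15 with numpy 2.4.6, pandas 2.3.3 and matplotlib 3.10.9 served for tables and plots, and the limma step was tested on simulated data. Alternatives covered the filter, pseudocount, scaling, covariate, model, prefix, replicate block, length trend and each library left out.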

Additional observations from a re-analysis of the deposited data

Results flagged for a closer look

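In the 4 Treg-treated libraries, 10 of 133 groups of values held a library far from the others by Dixon's test, which flags about 1 in 20 groups by chance. In 8 the library was JL027-1. It was high for Cd4 (17587), Ccr9 (7569), Stat4 (17449), Ikzf3 (2734) and Il12rb2 (6099), and low for Ccl1 (5745), Ifi27l2a (43516) and Il3 (365). JL019-2 was high for Cxcr3 (8601) and JL027-2 low for Eomes (176).

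For 51 of 131 genes named in the report, against 5.43% of all genes, the change from syngeneic to Treg-treated cells differed between CD4 and CD8 cells in limma's test of the difference, with adjusted p between 6.14e-07 and 0.0456. Many of these genes were named for a low p of the change in CD4 cells. That change is a part of the difference, so the share is raised by the choice and supports nothing on its own. Values are the log2 change in CD4 minus that in CD8 cells. They use all CD4 syngeneic libraries, JL019-2 included, and are not given without it. Among homing and chemokine receptors they were Cxcr6 2.72, Ccr9 3.70, Cxcr3 2.80, Ccr8 -2.76 and Itgae 2.25. Among protease inhibitors, granule genes and lectin-like receptors they were Serpina3f 2.46, Serpina3g 1.57, Ctsw 3.41, Nkg7 2.64, Klrc1 2.25, Klrc2 3.57 and Klrd1 3.18. Among activation receptors and ligands they were Pdcd1 -3.86, Ctla4 -2.47, Havcr2 -4.20, Lag3 -2.39, Tnfrsf4 -2.86, Tnfrsf18 1.59, Tnfsf10 1.91, Il1rl1 -2.34 and Il7r 2.13, and among cytokines Il10 -2.24, Il21 -3.60 and Osm -1.82. Among transcription factors they were Foxp3 -7.32, Ikzf2 -2.63, Prdm1 -2.02, Hopx 2.00, Tbx21 2.16 and Eomes 1.40. The Foxp3 value combines -0.81 in CD4 and 6.51 in CD8 cells, whose library levels are not given here. The remaining values were Art2a 2.94, Igfbp4 -1.90, Cd72 -1.46, Jaml -1.25, Rnf122 1.45, Sgk3 -1.55, Ly6c1 -2.28, Cd3d 1.71, Cd3g 1.49, Mcm7 -1.09 and Mki67 -1.90, and Ifi27l2a 2.84, Usp18 1.57, H2-K1 1.75, Bcl2 1.34, Bcl2a1d -1.64, Igfbp7 -2.91, Man1c1 -4.25, Bbs9 1.62, Sytl3 1.71 and Zcchc18 1.77.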

How the results depend on the processing

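Against 2789 genes, limma called 0 in JL019 alone (2224 at an unadjusted p under 0.05), 256 in JL027 alone and 598 with only the compared groups in the model. Leaving out single libraries gave 1817 (without Treg-treated JL019-2) to 4653 (without Treg-treated JL027-1), and 4617 without syngeneic JL019-2. Removing the length trend together with syngeneic JL019-2, an alternative chosen after seeing the data, gave 4224. Against 909 genes for the difference between CD4 and CD8 cells, the counts were 0 in JL019 alone (853 at an unadjusted p under 0.05), 1 in JL027 alone, 222 with only the compared groups and 1955 with the mean value of each library as a covariate. Leaving out single CD4 libraries gave 706 to 1813, the highest without Treg-treated JL027-1. Where fewer libraries or groups enter, fewer degrees of freedom remain. The cause of the other changes was not tested. The other counts were within 1.5 times of these.

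The prefix as a replicate block gave 2815 genes, and 966 for the CD4 and CD8 difference, and the full label as a replicate block gave 2821. Deviations of same-labelled Treg-treated and syngeneic libraries from their group means correlated at -0.25 (JL019-1) and 0.085 (JL019-2), so the full label was not taken as a pairing. Over 6 pairs that share a prefix r was -0.25 to 0.35, and over 6 that do not, -0.37 to 0.26. With permutation within the prefix as the replicate block, the exact p was 0.111 for TRB clonality, with the difference unchanged at 0.111, and for the number of TRB clonotypes, at -2230.4. Both kept their direction in each alternative run. Counting all reads, the clonotype difference was -2212 (exact permutation p 0.171), and with clonotypes of at least 2 reads -593 (exact permutation p 0.114), and in both the groups overlapped. Leaving out single libraries gave clonality differences of 0.102 to 0.123 and clonotype differences of -2850 to -1755.

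Of 118 called genes named in the report, 80 kept their direction and call in the 18 settings other than the prefix subsets, among them all 19 leading genes. The 118 leave out some called genes named only as list members, such as Acadm. With only the compared groups in the model 38 lost their call: Cd8a, Ccr8, Itgb1, Lef1, Stat4, Ikzf3, Tox2, Socs3, Cd3d, Cd3g, Dusp2, Nfkbia, Cenpa, Mcm7, Ldha, Acadl, Ifit2, Usp18, Oas2, H2-K1, Klrc2, Klrd1, Prdm1, Med12l, Slc2a8, Myo6, Il3, Lta, Osm, Lamp1, Eomes, Bcl2, Il7r, Il6, B2m, Tbx21, Gata3 and Tnfsf11. Log2 differences that changed sign were those of genes not called with all libraries. In JL027 alone Cd4 was -0.18, Jun 0.42, Cd3e -0.087, Ncr1 1.02, Prf1 -0.15 and Ikzf2 -0.61, and in JL019 alone Itgb7 was 0.13. With the length trend and syngeneic JL019-2 removed Cd4 was -0.49, Igtp -0.14, Cd3e -0.070, Ncr1 0.93 and Prf1 -0.0090. Itgb7 was 0.17 after median centring, 0.12 with the covariate and 0.072 with the full label as a replicate block, and Itgae 0.0085 after median centring and 0.069 after quantile normalisation. Leaving out single libraries gave ranges of -0.54 to 1.12 for Cd4, -2.10 to 0.051 for Foxp3, -0.028 to 0.63 for Igtp, -0.0016 to 0.94 for Cd3e, -1.55 to 1.06 for Ncr1, -0.72 to 0.30 for Itgb7, -0.75 to 0.27 for Itgae and -0.18 to 0.97 for Ikzf2. The medians of 5 lists changed sign without syngeneic JL019-2 (exhaustion factors, TCR complex, immediate early genes, interferon gamma-inducible GTPases and stress response). Low genes such as Calca rest on few reads in syngeneic libraries.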

Other observations

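Genes of the Y chromosome followed the label prefix and not the treatment. Ddx3y, a Y-linked RNA helicase, was at 2.03, 2.28, 1728 and 695 in Treg-treated and at 0, 5.73 and 1617 in syngeneic libraries, and Eif2s3y, a Y-linked translation factor, at 15.9, 5.19, 2225 and 2359 in Treg-treated and at 0, 14.5 and 2280.3 in syngeneic libraries. All JL027 libraries were high and all JL019 libraries low, in the allogeneic group as well (Ddx3y at 1.99, 5.99, 1575 and 1233 in JL019-1, JL019-2, JL027-1 and JL027-2). Both prefixes occur in each group compared, with 2 JL019 and 2 JL027 libraries among the Treg-treated and 2 and 1 among the syngeneic ones.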
